A study of Mus musculus with 30 samples.

Results

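The miRNAs mmu-miR-143 and mmu-miR-145, written miR-143 and miR-145 from here on, are followed through 8 groups of mouse samples, as the rows of the deposited table that carry their names. They are 2 of 566 mouse miRNA probes among 626 probes in all, and each is given as signal and as its share of the summed signal of all mouse miRNA probes. The 30 samples came from male C57BL6 mice. The mice that gave tissue ate normal chow (NCD) or a diet of 60% fat (HFD) between 4 and 20 weeks of age. The fat along the gut, mesenteric adipose tissue (MAT), gave 5 samples on each diet, and abdominal aorta (AA) gave 3 on each. Mesenteric pre-adipocytes of the stromal fraction, labelled as coming from NCD-fed mice, were turned into adipocytes in culture (MAT-Ad). They received PBS or 1 µg/ml lipopolysaccharide (LPS), a component of bacterial walls, for 24 h, with 4 samples each. Exosomes (MAT-Ad-EX), the small vesicles that cells release, came from the medium of such cultures, 3 samples for each treatment, and their RNA was extracted with another kit than that of tissues and cells. No genetic change is given for any group. The labels do not say which samples of a group came from separate animals or cultures, or whether tissue was pooled, so every p-value measures only how far the samples of a group spread, and that spread may be technical.

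A miRNA is a short RNA that guides a silencing complex to messenger RNAs, mostly through pairing of its seed, the bases near its 5′ end. The genes of miR-143 and miR-145 lie side by side and are transcribed together. In vessels both are best known from smooth muscle, where the transcription factors SRF and myocardin drive them and where they favour the contractile state of the cell. Both have also been described in fat, miR-143 as a miRNA of adipocyte differentiation. In the RefSeq gene table of build GRCm38.p6, Mir143 and Mir145a had 0 other genes between them, and both lay inside the long non-coding RNA gene Carmn. The probe names give no arm. The probe name miR-145 does not separate Mir145a from Mir145b, a gene of its own in the same table.

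The sequences are shown of the miRNAs whose pattern over the 24 tissue and cultured-cell samples came closest to that of the pair. Tissue and culture are pooled there, and within the 10 fat samples other miRNAs came closest. The miRNAs were chosen by the correlation over all 24 samples, given further on. Among them, miR-193b was under the detection limit, given below, in every cultured sample. RefSeq mature sequences were at hand for 3 of these 5 miRNAs. The capitals mark the seed, bases 2 to 8 counted from the 5′ end. Since the probes name no arm, the arm shown is the usual one.
miR-23a-3p: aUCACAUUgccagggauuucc
miR-10a-5p: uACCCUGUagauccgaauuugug
miR-193b-3p: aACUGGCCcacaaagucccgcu
In GRCm38.p6 these lie on the plus strand at chr8:84208563-84208583, chr11:96317186-96317208 and chr16:13449570-13449591. The 3 sequences carry 3 different seeds. None of the 3 is a neighbour of the others, which are on 3 chromosomes.

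The summed mouse miRNA signal was 270569 to 496704 in fat, 174770 to 287152 in aorta and 70149 to 142968 in cultured adipocytes. It was 1796 to 2861 in exosomes of PBS cultures and 5753 to 33349 in those of LPS cultures. The number of probes over the detection limit of 29.8, the mean plus 2 SD of the negative controls, was at most 172 in fat and ran from 7 to 67 in exosomes. AA-NCD replicate 1 stood apart from the other aortas: its ligation control read 50714 against 4295 to 8159, and its values had been multiplied by the largest factor of the series, 2.40. The 4 kinds of sample also differ in the letter of their descriptions, so kind and letter cannot be told apart.

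miR-145 had its highest group means in aorta, but aorta and fat samples overlapped, with fat readings of up to 74464. The miR-145 signal was 92330, 51195 and 48079 in AA-NCD replicates 1 to 3 and 51877, 67013 and 68276 in AA-HFD replicates 1 to 3. The 2 diets overlapped, and the highest value belonged to AA-NCD replicate 1. In every one of the 6 aortas miR-145 gave the highest reading of all mouse miRNA probes, although readings of different probes also depend on the probe. It did so in 6 of the 10 fat samples and in 0 of the 8 cultured adipocyte samples.

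miR-143, its partner in the cluster, read 17373, 8899 and 9915 in AA-NCD replicates 1 to 3 and 9034, 16429 and 17160 in AA-HFD replicates 1 to 3. Both diets covered nearly the same range. Group means were 12062 ± 4628 (SD, n = 3) in AA-NCD and 14208 ± 4495 (SD, n = 3) in AA-HFD for miR-143. For miR-145 they were 63868 ± 24698 and 62389 ± 9126 (SD, n = 3 each).

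In fat, miR-145 read 40752, 30178, 28977, 18266 and 70869 in MAT-NCD replicates 1 to 5. It read 23334, 74464, 70704, 37101 and 11773 in MAT-HFD replicates 1 to 5. The 2 diets overlapped throughout, and both the highest and the lowest fat sample were on HFD. miR-143 read 9045, 7853, 6491, 6673 and 12852 in MAT-NCD and 4109, 17753, 14140, 10599 and 4263 in MAT-HFD, in the same order of replicates. Again the extremes were HFD samples. Group means in MAT-NCD and MAT-HFD were 37808 ± 20123 and 43475 ± 28076 (SD, n = 5 each) for miR-145, and 8583 ± 2598 and 10173 ± 6022 (SD, n = 5 each) for miR-143.

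Cultured adipocytes held far less of both. miR-145 read 2138, 2624, 1482 and 1918 in the PBS samples and 1716, 4412, 1578 and 1439 in the LPS samples. miR-143 read 803, 884, 516 and 671 with PBS and 763, 1461, 737 and 592 with LPS. All 8 samples were over the detection limit for both miRNAs, and LPS replicate 2 was the highest for both. No cultured sample reached the lowest fat sample, and as shares, too, the pair lay higher in MAT-NCD than in every PBS culture, as 45.7% of the miRNAs tested there did.

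In exosomes of PBS cultures both miRNAs lay at the floor of the table, reading 1.08, 1 and 1. In exosomes of LPS cultures miR-145 read 137, 918 and 20.7 and miR-143 read 99.1, 74.4 and 1 in replicates 1 to 3. Replicate 3 was under the limit for both, and the other two were over it for both.

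Ordered by mean signal, the groups ran from aorta through fat to cultured adipocytes and then to exosomes for both miRNAs. Neighbouring groups in that order overlapped in their samples at most steps. Gaps between neighbours fell between MAT-NCD and the LPS-treated adipocytes and between the PBS-treated adipocytes and LPS exosomes for both miRNAs. For miR-145 there was also a gap between LPS and PBS exosomes.

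**Figure D1:**
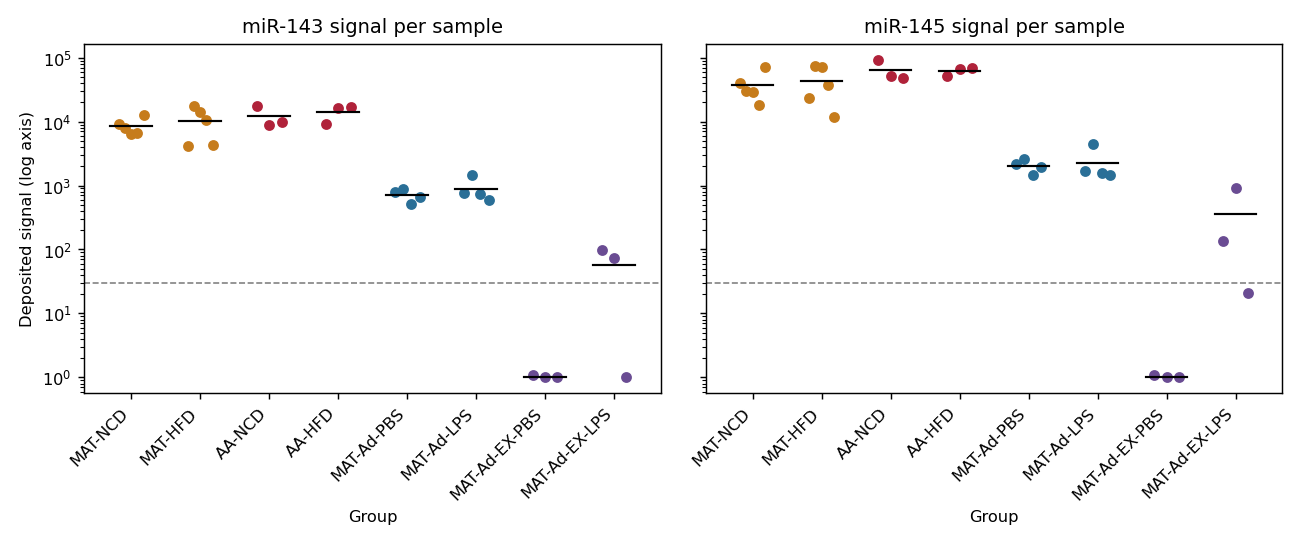
Signal of miR-143 (left) and miR-145 (right) in each of the 30 samples on a log axis, by group; points are samples, bars are group means and the dashed line is the detection limit of 29.8. Aorta and fat overlap, cultured adipocytes lie below every fat sample, and PBS exosomes lie at the floor.

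Of the summed miRNA signal, miR-145 made up 32.2%, 28.3% and 27.5% in AA-NCD replicates 1 to 3 and 23.4%, 25.5% and 24.2% in AA-HFD replicates 1 to 3. In fat its share was 13.6%, 8.58%, 10.7%, 6.27% and 20.2% in MAT-NCD and 7.50%, 14.99%, 18.02%, 8.90% and 3.43% in MAT-HFD. It was between 1.41% and 3.09% in the 8 adipocyte samples. Every aorta had a larger share of miR-145 than every fat sample. The shares of miR-143 were 4.08% to 6.26% in aorta, 1.24% to 3.66% in fat and 0.589% to 1.02% in cultured adipocytes, and here too aorta and fat did not overlap. The pair together held 34.9% ± 2.88 (SD, n = 3) of the signal in AA-NCD, 29.9% ± 2.17 (SD, n = 3) in AA-HFD, 14.6% ± 5.98 (SD, n = 5) in MAT-NCD and 13.0% ± 6.97 (SD, n = 5) in MAT-HFD. A share rises when other miRNAs fall, and in bulk tissue fewer cells of a type and less RNA per cell cannot be told apart.

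**Figure D2:**
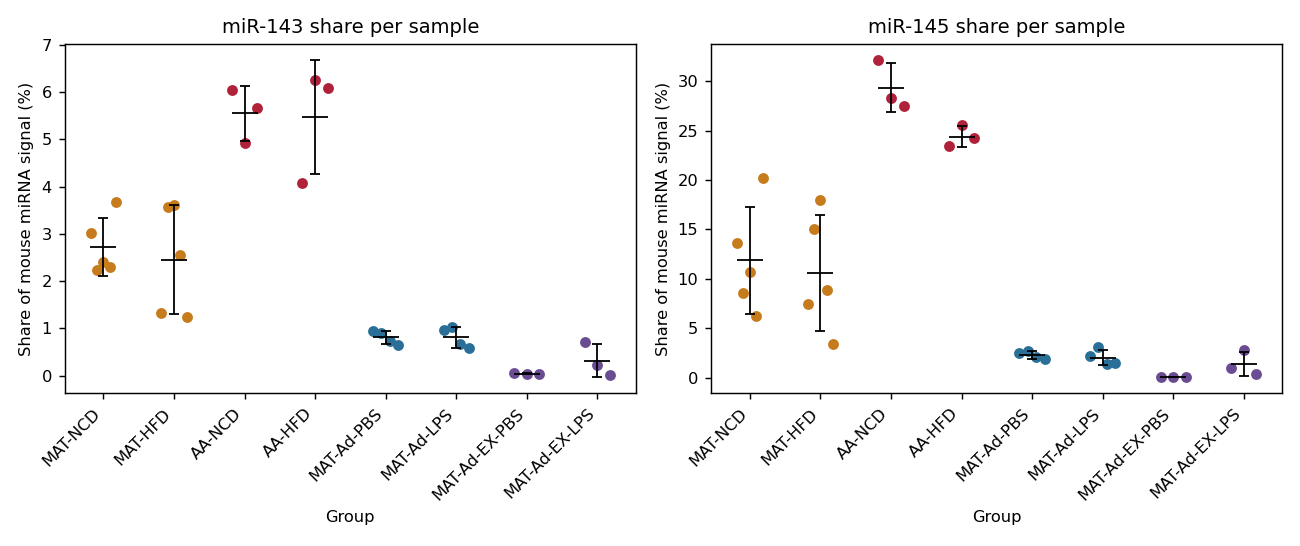
Share of miR-143 (left) and miR-145 (right) in the summed mouse miRNA signal of each sample, in percent; points are samples and bars are the group mean with its SD. The 6 aortas lie above all 10 fat samples for both miRNAs, and AA-HFD lies below AA-NCD for miR-145.

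The first comparison asked how aorta and fat differ on each diet. As deposited, neither miRNA passed the test. On chow miR-145 was 1.79 times as high in aorta as in fat (log2 difference 0.84 ± 0.55 SE, adjusted p = 0.18, n = 3 and 5, limma), with a 95% interval of 0.792 to 4.04. miR-143 was 1.39 times as high (0.47 ± 0.48 SE, adjusted p = 0.38, limma), with an interval of 0.688 to 2.80. On HFD the log2 differences were 0.82 ± 0.55 for miR-145 (adjusted p = 0.18, limma) and 0.67 ± 0.48 for miR-143 (adjusted p = 0.20, limma).

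Of all miRNAs tested, 128 of 175 (73.1%) passed on chow and 138 of 175 (78.9%) on HFD, with 3 higher and 125 lower in aorta on chow and all but 5 lower on HFD. This split followed the scale: after centring on the median it was 53 higher and 54 lower on chow and 55 and 54 on HFD, and after quantile normalization 49 and 39, and 56 and 45. As deposited, the median log2 difference over all tested was -2.10 on chow and -2.02 on HFD. Against that shift the pair stood near the top: miR-145 ranked 6th and miR-143 14th from the highest difference on chow, and 9th and 10th on HFD. When each sample was scaled to the summed signal of all other mouse miRNAs, both members passed as higher in aorta. Of 175 tested in that setting, 27 passed as higher and 88 as lower on chow, and 22 and 89 on HFD. The log2 differences were then 1.81 ± 0.52 (SE, adjusted p = 0.0069) for miR-145 and 1.44 ± 0.41 (SE, adjusted p = 0.0066) for miR-143 on chow, and 1.73 ± 0.52 (SE, adjusted p = 0.0087) and 1.58 ± 0.41 (SE, adjusted p = 0.0033) on HFD, all by limma. Without AA-NCD replicate 1 the scaled chow differences were 1.70 ± 0.61 and 1.34 ± 0.48 (SE, adjusted p = 0.029 for each, limma), an alternative chosen after the data were seen. The call therefore depends on the scale: signal as deposited, or signal relative to the other miRNAs.

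The shares were also compared with exact permutation tests, 2-sided. The miR-145 share was 29.3% ± 2.48 in AA-NCD against 11.9% ± 5.39 in MAT-NCD (SD, n = 3 and 5, exact p = 0.018, the smallest this design allows). On HFD it was 24.4% ± 1.06 against 10.6% ± 5.88 (SD, n = 3 and 5, exact p = 0.036). Same-numbered aorta and fat samples on HFD deviated together, but the share tests and the scaled fits took them as independent. The miR-143 share was 5.55% ± 0.573 against 2.72% ± 0.614 on chow (exact p = 0.018) and 5.47% ± 1.21 against 2.46% ± 1.16 on HFD (exact p = 0.036). After Benjamini-Hochberg adjustment over the 27 share tests made, each of these had an adjusted p of 0.080 and did not pass. Shares higher in aorta without overlap were found for 9.68% of miRNAs on chow and 9.7% on HFD, and the 2 members were among them on both diets. Without AA-NCD replicate 1, the chow difference of miR-145 signal was 0.54 on the log2 scale (adjusted p = 0.46, limma) and that of its share 16.05 percentage points, against 17.5 with it. For miR-143 the log2 difference was then 0.18 (adjusted p = 0.77, limma) and the difference of shares 2.58 points, against 2.83 with it.

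The 12 other miRNAs of a list known for effects on the smooth muscle phenotype, among them miR-21, miR-24, miR-221 and miR-222, were read beside the pair. On chow 0 of 12 rose and 4 of 12 fell in aorta relative to fat, with a median log2 difference of -0.38 against -2.10 for all miRNAs. On HFD 0 of 12 rose and 7 of 12 fell, with a median of -1.04 against -2.02. Of 4 miRNAs typical of mesenchymal cells, miR-140, a miRNA of cartilage, was higher in aorta by 10.5-fold on chow (log2 difference 3.39 ± 0.31 SE, adjusted p = 1.9e-07, limma), and miR-199a-3p was 1.73-fold higher (0.79 ± 0.21 SE, adjusted p = 0.0029, limma). The other two, miR-199a-5p and miR-214, did not pass on chow (0.12 and 0.51, adjusted p = 0.74 and 0.68, limma). On HFD miR-140 was again higher (3.21 ± 0.31 SE, adjusted p = 2.5e-07, limma) and miR-199a-5p was lower (-0.85 ± 0.32 SE, adjusted p = 0.023, limma), while miR-199a-3p and miR-214 did not pass (0.26 and -1.25, adjusted p = 0.26 and 0.29, limma). The muscle miRNAs miR-1 and miR-133a did not pass on either diet: their log2 differences on chow were -0.37 ± 0.73 and 1.18 ± 0.67 (SE, adjusted p = 0.66 and 0.12, limma). On HFD they were 0.47 ± 0.73 and 1.35 ± 0.67 (SE, adjusted p = 0.56 and 0.073, limma). The endothelial miRNAs miR-126-3p and miR-126-5p together made up 5.49% to 11.1% of the signal in fat and 1.15% to 1.72% in aorta. Their part in the difference of the pair's shares was not tested.

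The next comparison asked whether the high-fat diet changed the pair in either tissue. In fat the log2 difference of HFD over NCD was 0.04 ± 0.52 for miR-145 (SE, adjusted p = 0.94, n = 5 and 5, limma) and 0.05 ± 0.42 for miR-143 (SE, adjusted p = 0.93, limma). The 95% intervals of the fold, 0.471 to 2.25 and 0.545 to 1.96, leave room for a change of about that size either way. In the same fit 24 of 157 miRNAs (15.3%) passed. The pair ranked 108th (miR-143) and 109th (miR-145) from the highest of 157, with a median over all of 0.31. Of the 12 smooth muscle regulators 3 rose and 0 fell: miR-21 was 2.06-fold, miR-221 12.7-fold and miR-222 at least 2.12-fold higher on HFD (adjusted p = 0.028, 2.5e-05 and 2.5e-06, limma), miR-221 and miR-222 being known for promoting smooth muscle growth. On chow miR-222 was over the limit in 0 of 5 samples, which is why its fold is a bound from the limit, and miR-221 in 3 of 5. The adjusted p of miR-222 belongs to its log2 difference as deposited, 4.47, and not to the bound. miR-222 entered this test only through the HFD samples. Its p-value thus rests on chow readings under the limit and is not read as support. The sign of the pair's difference in fat turned with the scale: relative to all other miRNAs it was -0.30 for miR-145 and -0.29 for miR-143 (adjusted p = 0.77 and 0.67, limma).

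In aorta the log2 difference of HFD over NCD was 0.02 ± 0.31 for miR-145 (SE, adjusted p = 0.99, n = 3 and 3, limma) and 0.24 ± 0.38 for miR-143 (SE, adjusted p = 0.89, limma). The fold intervals were 0.603 to 1.71 and 0.627 to 2.24. Of 99 miRNAs tested 0 passed (0%) by limma, while 11 had an unadjusted p under 0.05. None of the 9 smooth muscle regulators tested passed in either direction. The difference between the diet effects of aorta and fat was -0.02 ± 0.78 for miR-145 and 0.20 ± 0.67 for miR-143 (SE, adjusted p = 0.99 and 0.97, limma). Of 175 miRNAs, 3 (1.71%) passed in that test.

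The share of miR-145 in aorta, by contrast with its signal, did not overlap between diets: 23.4% to 25.5% on HFD against 27.5% to 32.2% on NCD, a difference of -4.95 percentage points. The exact permutation test gave p = 0.10, the smallest that 3 against 3 samples allow (adjusted p = 0.17, n = 3 and 3). Of 99 miRNAs 9 (9.09%) had a share lower on HFD without overlap. Leaving out AA-NCD replicate 1 made the difference -3.54 points, still without overlap. The denominator bears on this value. miR-720, a probe now taken to read a tRNA fragment, made up 10.05% to 11.6% of the signal in AA-HFD and 12.1%, 4.01% and 3.26% in AA-NCD replicates 1 to 3. With miR-720 left out of the summed signal, an alternative chosen after its values were seen, the difference was -4.19 points, and with AA-NCD replicate 1 also left out it was -1.65 points. The share of miR-143 differed by -0.0759 points, with overlap (exact p = 1, n = 3 and 3), and its sign turned without miR-720.

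The third comparison set whole fat against adipocytes grown from its stromal cells, MAT-NCD against PBS-treated MAT-Ad. miR-145 was 17.1-fold higher in fat (log2 difference 4.09 ± 0.37 SE, adjusted p = 2.1e-06, n = 5 and 4, limma) and miR-143 was 11.8-fold higher (3.56 ± 0.26 SE, adjusted p = 5.2e-07, limma). The 95% intervals were 9.67 to 30.1 and 7.88 to 17.6. Most miRNAs moved the same way: 122 of 151 (80.8%) passed, with a median log2 difference of 2.77, and the pair ranked 41st and 51st from the highest. Scaled to all other miRNAs, the differences remained past the threshold at 2.45 ± 0.36 for miR-145 (SE, adjusted p = 0.00018, limma) and 1.92 ± 0.24 for miR-143 (SE, adjusted p = 5.8e-05, limma).

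The cultures differed from the tissue in the marker miRNAs of other cells too. In cultured adipocytes all 7 striated muscle miRNAs, both endothelial and all 3 red cell miRNAs were under the detection limit in every sample, while in MAT-NCD both endothelial and all 3 red cell miRNAs were over it in every sample. Of the 7 striated muscle miRNAs, 2 were over it in every MAT-NCD sample and the other 5 were under it there too. Other markers were over the limit in all 4 PBS samples: the mesenchymal miR-199a-3p and miR-199a-5p, at 2098 ± 230 and 785 ± 172.5 (SD, n = 4), the leukocyte miR-142-5p, at 237 ± 10.9 (SD, n = 4), and the epithelial miR-200b, at 164 ± 35.6 (SD, n = 4). The other 2 mesenchymal, 4 leukocyte and 4 epithelial miRNAs were under the limit in every PBS sample. miR-142-5p and miR-200b read about as high in PBS exosomes, at 207 ± 47.9 and 179 ± 48.1 (SD, n = 3). The part of these markers in the pair's level was not tested. Of the 7 adipocyte miRNAs, 3 were over the limit in all PBS samples and 3 in none of them. miR-193b, on that list as a miRNA of brown fat differentiation, read 1 to 1.26 in the PBS-treated cultures and 24.8 to 50.9 in MAT-NCD. Of the 9 smooth muscle regulators tested, 8 were higher in fat and 0 lower, at a median of 2.77 against 2.77 for all miRNAs.

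LPS did not change the pair past the test in cultured adipocytes. The log2 difference over PBS was 0.03 ± 0.38 for miR-145 and 0.25 ± 0.33 for miR-143 (SE, adjusted p = 0.98 and 0.77, n = 4 and 4, limma), with fold intervals of 0.566 to 1.84 and 0.715 to 1.97. Of 98 miRNAs 2 passed (2.04%), and 8 passed with the replicate numbers as a block, neither fit calling a member. The 2 were both smooth muscle regulators on the list of 12, of which 6 were tested: miR-146a, a miRNA induced by inflammatory signalling, was 7.69-fold higher and miR-221, over the limit in 0 of 4 PBS samples, at least 3.09-fold higher (adjusted p = 0.0010 and 0.0034, limma). The adjusted p of miR-221 belongs to its log2 difference as deposited, 3.90, and not to the bound. miR-221 entered this test only through the LPS samples, so its p-value rests on PBS readings under the limit. The list was chosen with earlier results of these data known, so that both are on it is no support for a theme. LPS replicate 2 carried the small upward difference of the pair. Without it the log2 difference was -0.34 for miR-145 and -0.02 for miR-143.

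The exosome comparisons rest on low readings. Against PBS-treated adipocytes, PBS exosomes held at least 67.1-fold less miR-145 and at least 23.6-fold less miR-143, bounds set by the detection limit (n = 3 and 4). As deposited, the log2 differences were -9.95 and -8.44 (adjusted p = 3.7e-07 and 4.3e-06, limma). Both members entered this test only through the adipocyte samples, so its p-values belong to readings at the floor and not to the bounds. Of 114 miRNAs 90 (78.9%) passed there. A lower share in PBS exosomes without overlap was found for 51.8% of 83 miRNAs, the pair among them. The pair's shares there are floor readings over a small summed signal, so their size was not measured. For miR-143 a reading just under the limit would not have given a lower share, so its non-overlap was set by the floor. With LPS, miR-145 was lower in exosomes than in cells by a log2 difference of -3.86 ± 0.91 and miR-143 by -5.08 ± 1.02 (SE, adjusted p = 0.0020 and 0.00061, n = 3 and 4, limma), where 83 of 114 (72.8%) passed and the median was -3.44. Scaled to all other miRNAs, miR-145 no longer passed (-0.95 ± 0.58 SE, adjusted p = 0.20, limma) and miR-143 did (-2.17 ± 0.74 SE, adjusted p = 0.025, limma).

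Between exosomes of LPS and PBS cultures neither member entered the test, since each was over the limit in 2 of 6 samples. Of the 26 miRNAs that did, 8 (30.8%) passed. From the means of log2 values, miR-145 was at least 4.62-fold higher with LPS, and no fold is given for miR-143. The bound rests on LPS exosome replicate 2: without it, miR-145 was at least 1.79-fold higher, and without replicate 3, the sample under the limit, at least 11.9-fold. Leaving out single samples also decided whether the members entered the test, so no p-value is read from such fits. The summed miRNA signal also differed, 5753 to 33349 with LPS against 1796 to 2861 with PBS, and its part in the result was not tested. The LPS effect on miR-145 in exosomes less that in cells was 6.09 ± 1.29 on the log2 scale (SE, adjusted p = 0.012, limma), in a test in which 17 of 114 (14.9%) passed. miR-145 entered that test only through the adipocyte samples, so its p-value rests on exosome readings at the floor. The difference did not pass with values under the limit set to the limit (2.33, adjusted p = 0.46, limma). For miR-143 it was 3.36 ± 1.44 (SE, adjusted p = 0.14, limma). Without LPS exosome replicate 3, the LPS sample in which miR-143 lay at the floor, the value was 5.18, and no test is read from it.

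**Figure D3:**
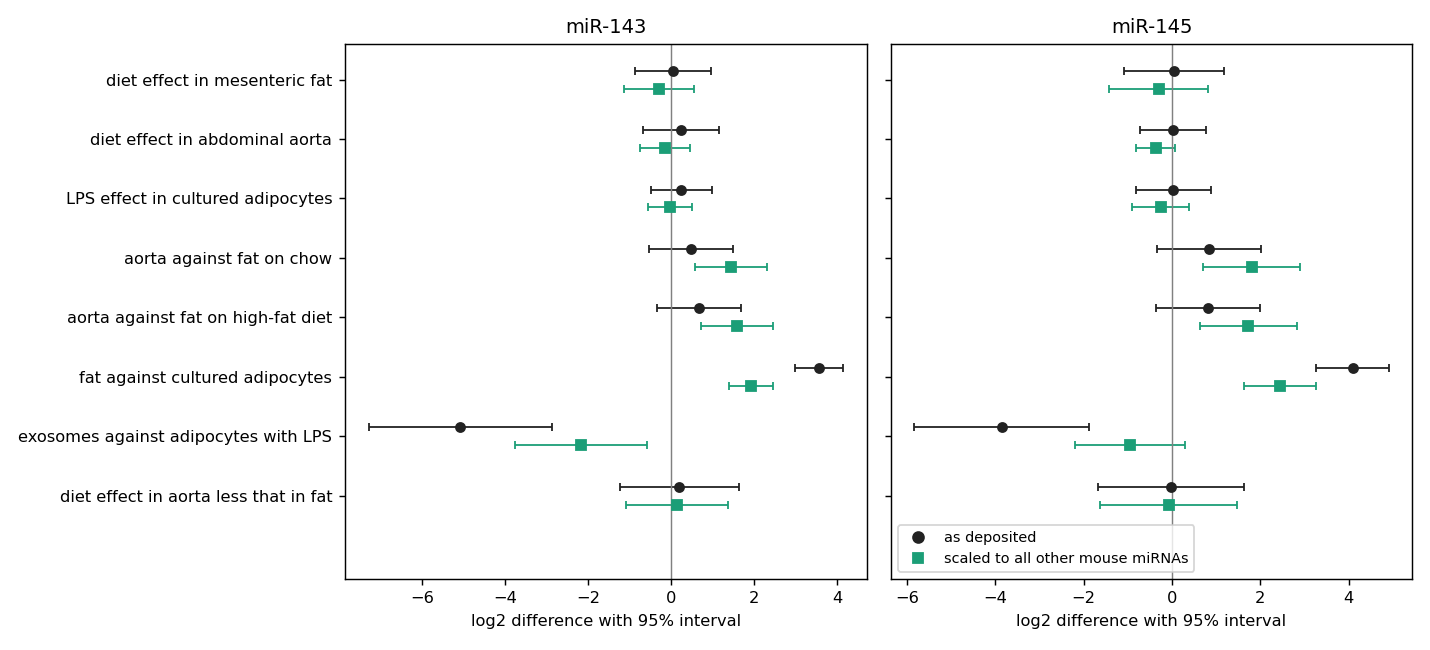
Log2 differences of miR-143 (left) and miR-145 (right) with 95% intervals from limma, for signal as deposited (circles) and scaled to all other mouse miRNAs (squares). Comparisons with PBS exosomes, where both lie at the floor, are left out. The intervals of aorta against fat, on either diet, include 0 as deposited and exclude it when scaled.

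The 2 miRNAs tracked each other within fat. Across the 10 fat samples the correlation of their log2 ratios to all other miRNAs was r = 0.92 (permutation p = 0.00021, adjusted 0.00063) and rho = 0.98 (permutation p = 1e-05, the smallest 100000 permutations can give, adjusted 6e-05). Without the 2 samples farthest from the median of miR-143, r was 0.95. In the 8 cultured adipocyte samples r was 0.90 and rho 0.86 (exact permutation p = 0.0016 and 0.011, adjusted 0.0031 and 0.016), with r = 0.81 without the 2 farthest. That permutation shuffled all 8 culture samples as if they were independent. Same-numbered PBS and LPS cultures deviated together, so these p-values may be too small. In the 6 aortas r was 0.62 and rho 0.49 (exact permutation p = 0.19 and 0.36, adjusted 0.23 and 0.36), which did not pass. miR-145 spanned 1.92-fold among the aortas and 6.32-fold among the fat samples. These 6 tests form the family of the adjustment, and the points within each tissue share the preparation of that tissue.

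The ratio of miR-145 to miR-143 in a sample, whose size also depends on the probes, can be compared between groups. Its log2 value was 2.04 ± 0.38 in MAT-NCD, 2.03 ± 0.41 in MAT-HFD (SD, n = 5 each), 2.40 ± 0.12 in AA-NCD and 2.18 ± 0.30 in AA-HFD (SD, n = 3 each). It was 1.50 ± 0.07 in PBS-treated and 1.28 ± 0.22 in LPS-treated adipocytes (SD, n = 4 each). The ratio was higher in fat than in PBS-treated adipocytes by 0.53 (exact permutation p = 0.040, adjusted p = 0.24 over 6 tests, n = 5 and 4), with overlap. In the other 5 comparisons the exact permutation p was 0.14 to 0.98.

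**Figure D4:**
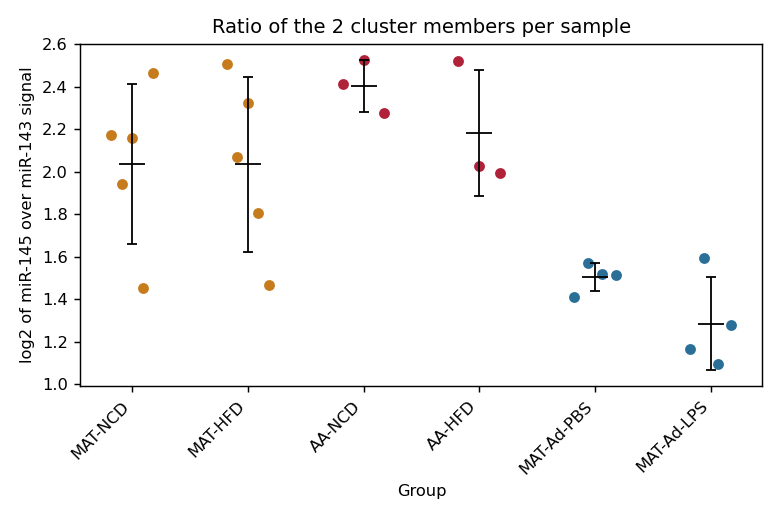
Log2 ratio of miR-145 to miR-143 signal in the 24 tissue and cultured-cell samples; points are samples and bars are the group mean with its SD. The 6 tissue and culture groups range from 1.28 in LPS-treated adipocytes to 2.40 in AA-NCD, and the fat samples spread most.

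Over the 24 tissue and cultured-cell samples, the log2 ratio to all other miRNAs of 124 miRNAs was compared with that of each member. miR-143 was most like miR-145 (r = 0.99), followed by miR-23b (0.96), miR-193b (0.95), miR-23a (0.94) and miR-30d (0.92). miR-145 was most like miR-143, followed by miR-193b (0.94), miR-10a (0.94), miR-23b (0.93) and miR-23a (0.93). Samples of a kind share their preparation, and these miRNAs also differed between tissue and culture. miR-193b was over the detection limit in 0 of 4 PBS and 0 of 4 LPS cultures, where it read at most 1.42. It entered this comparison only through tissue samples, so its r rests on floor readings in culture. miR-23a, for example, read 8265 ± 1176 in MAT-NCD (SD, n = 5) and 1339 ± 321 in PBS-treated adipocytes (SD, n = 4). miR-10a read 1278 ± 374 in MAT-NCD (SD, n = 5) and 210 ± 17.1 in PBS-treated adipocytes (SD, n = 4).

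Within the 10 fat samples, looked at after these values were seen, other miRNAs came closest. Among 156 miRNAs, miR-145 was most like miR-133a (r = 0.98), followed by miR-143 (0.92), miR-129-3p (0.91), miR-1 (0.85) and miR-100 (0.78). miR-143 was most like miR-1 (r = 0.96), followed by miR-133a (0.94), miR-129-3p (0.94), miR-145 (0.92) and miR-31 (0.83). miR-1 and miR-133a are the classic miRNAs of striated muscle and are also made in some smooth muscle. Their signal in fat ran from 111.6 to 1539 for miR-1 and from 25.3 to 266 for miR-133a, which was over the limit in 9 of the 10 samples, while the pair ran over 4.32-fold (miR-143) and 6.32-fold (miR-145). Without the 2 samples farthest from the median of each member, the r of miR-133a with miR-143 and miR-145 was 0.96 and 0.94, and that of miR-1 was 0.92 and 0.83.

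The 3 fat samples with the most miR-145 were MAT-HFD replicate 2, MAT-NCD replicate 5 and MAT-HFD replicate 3, and the same 3 had the most miR-133a and the most miR-143. The 3 with the least miR-145, MAT-HFD replicate 5, MAT-NCD replicate 4 and MAT-HFD replicate 1, had the least miR-133a as well. Both diets thus occurred at either end. As sums of marker lists within fat, the 7 striated muscle miRNAs, 5 of them under the limit in every fat sample, correlated with miR-143 and miR-145 at r = 0.97 and 0.90 (n = 10). The 5 leukocyte miRNAs correlated at -0.70 and -0.63, the endothelial at -0.49 and -0.20, the red cell at 0.29 and 0.27, the mesenchymal at -0.06 and -0.04, the epithelial at 0.40 and 0.28, and the 7 adipocyte miRNAs at 0.41 and 0.17. In the 6 aortas miR-133a correlated with miR-143 and miR-145 at -0.39 and -0.02, and miR-1 at 0.38 and -0.33. The cause of the spread of the pair among fat samples was not tested.

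**Figure D5:**
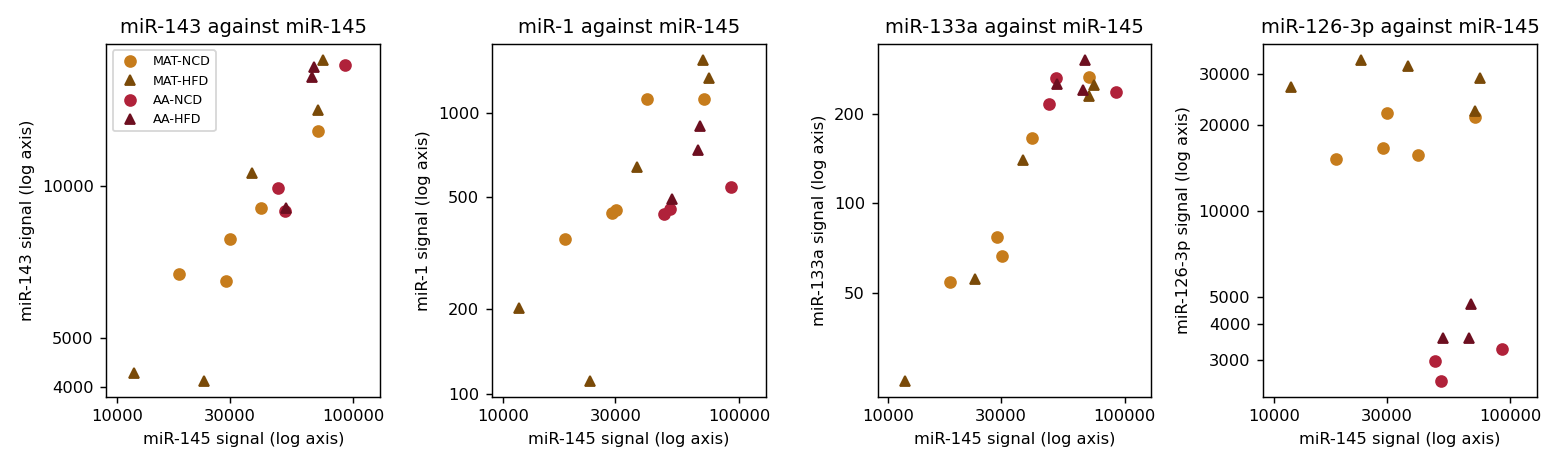
Signal of miR-143, miR-1, miR-133a and the endothelial miR-126-3p (vertical, log axes) against miR-145 (horizontal, log axis) in the 10 fat and 6 aorta samples; each point is a sample. In fat, miR-143, miR-1 and miR-133a rise with miR-145 while miR-126-3p does not, and the aortas lie at high miR-145 with low miR-126-3p.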

How the data were processed

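The deposited table holds signal values of a barcoded mouse miRNA panel (label: fluorescent barcode and biotin moiety); RNA was adjusted to 30 to 40 ng/µl, per the labels' protocols. The deposited signal values, read at their low end, are background-subtracted, set to a floor of 1 and, except for positive and negative controls, multiplied by 1 factor per sample, 0.602 to 2.40 (100% of values under 60 were whole multiples within 0.1, after the floor was left out). For the software, the way background was set and what the factor rests on: not given in the sources used here. Such values call for a test on the log scale, not a count model. The counting depth is not given, and the signal limits the precision.

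A miRNA was tested when it was over the detection limit of 29.8 (240 negative control values, not multiplied by the factor) in at least as many fitted samples as the smallest group holds. limma 3.58.1 in R 4.3.3 (lmFit, eBayes) was run on log2(value + 1), which understates changes of low miRNAs, with Benjamini-Hochberg adjustment over all miRNAs tested and a threshold of 0.05. Fits between tissues, between exosomes and cells and for differences of effects held all 4 groups, the others 2. A bound sets each value of the dimmer group to at least the limit. Shares, ratios and correlations used permutation tests in Python 3.11.15 (numpy 2.4.6, scipy 1.17.1). The limma step was tested on simulated data.

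The members and all lists were chosen with earlier results of these data known. Named were the members, the 5 miRNAs most like each over 24 samples (over the limit in at least 12), and up to 4 of each list. miR-720, miR-129-3p, miR-31 and miR-100 within fat were named after their values were seen. Same-numbered samples deviated together in cultured adipocytes (r = 0.49 to 0.86 over 4 pairs) and between aorta and fat on HFD (0.21 to 0.33), so these count as paired by the data. In no other comparison did every pair exceed 0.1. Alternatives were another pseudocount, filter, limit, scaling and fit, the replicate block and leaving out each sample.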

Additional observations from a re-analysis of the deposited data

Results flagged for a closer look

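The miR-145 signal of 4412 in LPS-treated adipocyte replicate 2 lay far above the other 3 samples of its group, at 1439 to 1716. Its distance to the nearest of them was 0.907 of the range of the group, over Dixon's critical value for 4 samples. It was the 1 such sample among 20 groups of values tested, and chance gives about 1 in 20. The summed miRNA signal of that sample, 142968, was also the highest of the 8 cultures, and as a share miR-145 was 3.09% there against 1.41% to 2.15% in the other 3.

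As deposited, the effect of LPS on miR-145 was called different between exosomes and cells, by 6.09 on the log2 scale (adjusted p = 0.012, limma). All PBS exosomes lay at the floor, and miR-145 entered this test only through the adipocyte samples. Both the size and the call thus depend on the floor and on the pseudocount, and no difference of effects is read from it. Over its alternatives, leaving out samples aside, the adjusted p ran up to 0.46.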

How the results depend on the processing

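The absence of a call for diet and for LPS in culture, and the calls of fat over cultured adipocytes and of PBS exosomes under adipocytes held for both members under every alternative run. The signs of uncalled diet and LPS differences did not hold. For the diet effect in fat (log2), centring on the median, scaling to all other miRNAs and quantile normalization gave -0.17, -0.29 and -0.30 for miR-143 and -0.18, -0.30 and -0.49 for miR-145. In aorta scaling and quantile gave -0.15 and -0.54 for miR-143, and centring and scaling -0.18 and -0.37 for miR-145. In cultured adipocytes scaling and quantile gave -0.038 and -0.24 for miR-143, and centring, scaling and quantile -0.15, -0.26 and -0.24 for miR-145. The difference of diet effects became -0.0023 for miR-143 (quantile) and 0.17, 0.66 and 0.015 for miR-145 (centring, quantile, factor undone). With miR-720 left out the miR-143 share differed by 0.175 points between diets in aorta (0.638 also without AA-NCD replicate 1) and by 0.0028 points with LPS in culture. The cause was not tested.

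Aorta over fat passed after centring, scaling and quantile normalization for miR-143 (2.30, 1.44 and 1.33 on chow, 2.69, 1.58 and 1.33 on HFD) and after centring and scaling for miR-145 (2.67 and 1.81, 2.84 and 1.73). Scaled and without AA-NCD replicate 1, chosen after the data were seen, the chow values were 1.34 (miR-143) and 1.70 (miR-145), and both passed. LPS exosomes under adipocytes no longer passed for miR-143 after quantile normalization (-1.86) or for miR-145 after centring, scaling or quantile normalization (-1.02, -0.95 and -0.96). The LPS difference of effects passed for miR-143 in a fit of all 30 samples (3.36), and for miR-145 did not pass with a pseudocount of 16 (3.32), no filter (6.09) or values set to the limit (2.33). LPS against PBS exosomes gave a test only without a filter, where neither passed, and on leaving out some single samples, from which no test is read; the other alternatives gave no test.

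Leaving out each sample in turn, the miR-143 and miR-145 differences ran from -0.21 to 0.31 and -0.23 to 0.44 (diet in fat), 0.06 to 0.54 and -0.15 to 0.32 (diet in aorta), -0.023 to 0.41 and -0.34 to 0.19 (LPS in culture), 2.60 to 5.42 and 4.76 to 7.46 (LPS in exosomes, tested or not), -0.069 to 0.49 and -0.42 to 0.28 (difference of diet effects), and 2.35 to 5.18 and 4.73 to 7.43 (difference of LPS effects). Diet differences of shares ran from -0.551 to 0.0390 (miR-143), -3.17 to 0.777 (miR-145) and -3.72 to 0.748 points (both) in fat, and from -0.469 to 0.621 (miR-143) in aorta. LPS in culture gave -0.0774 to 0.0669 (miR-143 share). The log2 ratio of the pair differed by -0.15 to 0.14 with diet in fat and by -0.023 to 0.26 between tissues on HFD.

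The replicate block, run only on signal as deposited, changed no call of a member: aorta over fat on HFD was 0.32 for miR-145 and 0.43 for miR-143 (adjusted p = 0.43 and 0.27, limma), and on chow, where the numbers do not pair, 0.89 for miR-145 (adjusted p = 0.054). The scaled calls of aorta over fat were not run with the block. Leaving out samples aside, the number of miRNAs called moved from 24 to between 8 (block) and 54 (factor undone) for diet in fat, from 2 to between 1 (limit doubled) and 8 (block) for LPS in culture, from 8 to between 0 (no filter) and 17 (1 fit) for LPS in exosomes, from 83 to as few as 48 (quantile) for LPS exosomes, from 3 to 5 (no filter) for the difference of diet effects and from 17 to between 5 (no filter) and 35 (centring) for that of LPS effects. Leaving out single samples it ran from 8 to 48, 2 to 4, 0 to 23, 70 to 92, 3 to 7 and 9 to 43 in the same order, and from 0 to 1 for diet in aorta. In exosomes 7 to 67 probes were over the detection limit, which limits what can be tested there.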
